A study of Mus musculus with 4 samples.

Results

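Lysosome and autophagy genes were followed as a named set of 37 mouse genes: 11 cathepsins, 12 other lysosomal hydrolases and luminal cofactors, 6 lysosomal membrane proteins and 8 autophagy factors. They were chosen by symbol for their known roles, but with earlier results of these data known. All 37 were among the 55401 genes of the files. RNA had been sequenced from the semimembranosus, a hamstring, in C57BL/6 mice at 8 weeks of age. In both groups the left external iliac vein had been tied over a 30-gauge needle, which narrows the vein (iliac vein stenosis, IVS) and obstructs venous return from the limb. The IVS_diosmin group (2 libraries) was given diosmin, a flavonoid given for chronic venous disease, by gavage at 40 mg per kg per day, and the IVS group (2 libraries) was given normal saline by gavage every day. No group without the stenosis was analysed here, so a difference between the groups cannot be placed relative to healthy muscle. The comparison asks how these genes differ in stenosis muscle when diosmin is given.

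Lysosomes are acidic organelles in which proteases, glycosidases and lipases break down material delivered by endocytosis and by autophagy. In autophagy, a double membrane decorated with lipid-linked LC3 and GABARAP proteins closes around cytoplasm and fuses with lysosomes. In skeletal muscle the pathway turns over mitochondria, glycogen and long-lived proteins, and it is known for its part in muscle wasting and in glycogen storage disease.

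Gene counts were 13897740 and 14539304 in IVS_diosmin replicates 1 and 2, and 15324354 and 13056650 in IVS replicates 1 and 2. Fast muscle fibre markers summed to 123210 and 127640 CPM (counts scaled to a common library total) with diosmin and to 124560 and 136160 CPM in IVS, so markers of the labelled tissue were present in every library. The libraries also differed in composition. A ribosomal RNA gene (CT010467.1) held 1.16% and 0.936% of gene counts with diosmin against 4.14% and 3.80% in IVS, and mitochondrial genes held 45% and 40.7% against 31.5% and 38.5%. With that gene and all mitochondrial genes left out, an alternative added after seeing the data, Ctsl (log2 fold change -1.44, edgeR adjusted p = 0.00485) and Psap (-1.35, edgeR adjusted p = 0.0117) were still the 2 members called. Other signs of composition, such as the nuclear noncoding RNA Neat1 (4971 and 3211 CPM with diosmin, 2583 and 2299 CPM in IVS), were not tested for their part. All levels below are CPM after TMM scaling, given for replicate 1 and then replicate 2 of each group. Differences are log2 fold changes of IVS_diosmin minus IVS ± SE with 95% intervals in brackets, and adjusted p-values are from edgeR's quasi-likelihood test with Benjamini-Hochberg adjustment over 13533 genes. The labels do not say that replicates came from separate animals, so these p-values measure only the spread between the samples, and that spread may be technical. For a single gene, the smallest p that an exact permutation test of 2 against 2 libraries can give is 0.333.

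Cathepsin L (Ctsl) and prosaposin (Psap) fell with diosmin, and no member rose. The 36 members that passed the low-count filter thus held 2 genes that fell (5.56%), against 1.78% of all tested genes that fell and 1.17% that rose. At an unadjusted p under 0.05, 11 members were lower (30.6%) and 0 higher, against 8.91% lower and 7.91% higher among all tested genes. DESeq2 gave an adjusted p for 33 members and called 3 lower (9.09%) and 0 higher, against 3.04% lower and 2.28% higher of the 11131 genes to which it gave one. In 18 members (50%) both diosmin libraries lay below both IVS libraries and in 0 they lay above them, against 24.1% and 23.4% of all tested genes. Since the members were chosen with earlier results of these data known, these shares describe the set and do not test it.

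The roles did not look alike. The median log2 fold change was -0.47 for the 10 tested cathepsins, -0.48 for the 12 other hydrolases and cofactors, -0.40 for the 6 membrane proteins and 0.14 for the 8 autophagy factors, beside 0.01 over all tested genes. The difference was negative in 9 of 10 cathepsins, 12 of 12 hydrolases and cofactors, 6 of 6 membrane proteins and 2 of 8 autophagy factors, which makes 29 of 36 members (80.6%) against 49.5% of all tested genes. The difference between the roles was not tested. In bulk tissue, fewer cells of a type and less RNA per cell cannot be told apart.

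**Figure D1:**
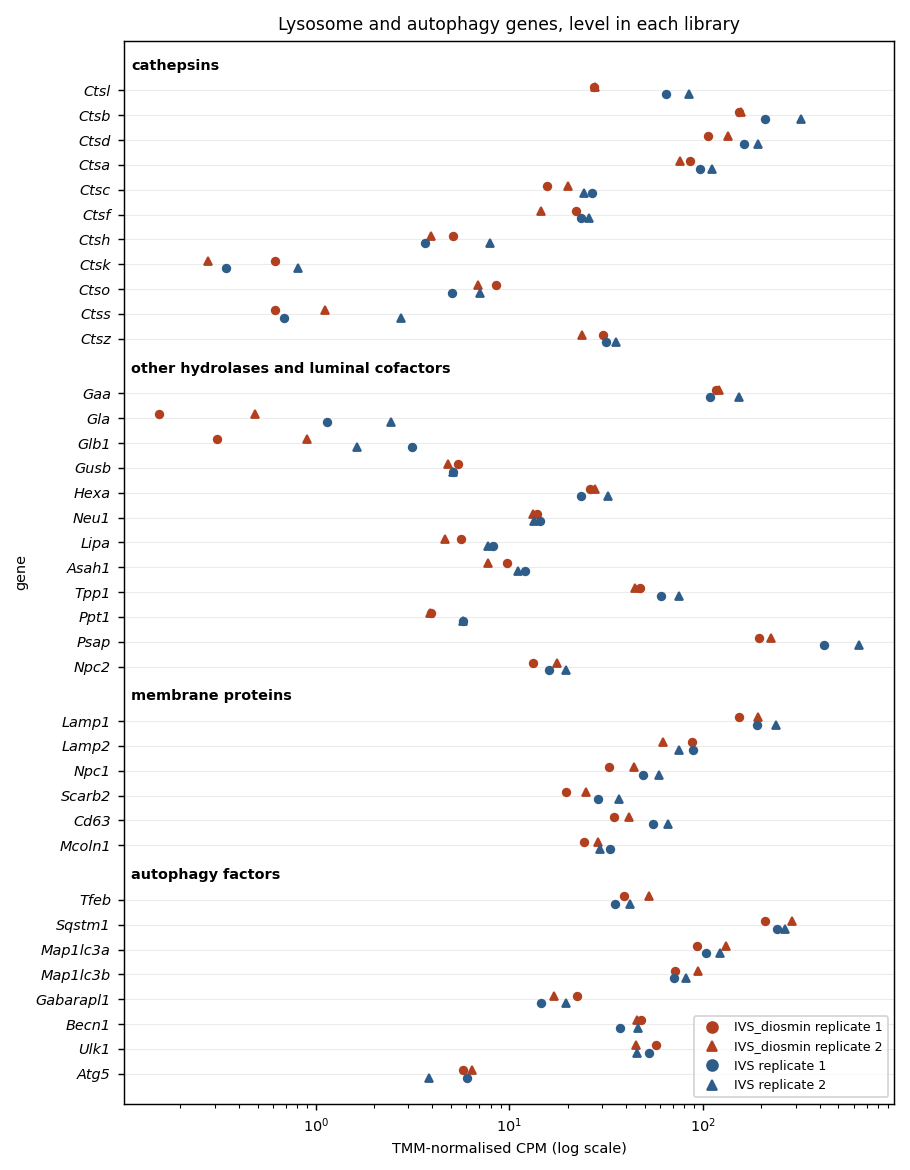
TMM-normalised CPM (log scale) of each of the 37 members in each library, with IVS_diosmin in red and IVS in blue, circles for replicate 1 and triangles for replicate 2. The red points lie left of both blue points in 18 of the 36 tested members, Ctsl and Psap among them, and in 0 of the 8 autophagy factors.

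Cathepsins are the main proteases of the lysosome. Cathepsin L (Ctsl, ENSMUSG00000021477, chr13:64359337-64370890 in mm10, protein-coding) is a cysteine protease whose mRNA is known to increase in several forms of muscle wasting. Its level was 27.4 and 27.6 CPM in the IVS_diosmin libraries, from 355 and 397 reads, against 64.2 and 84.9 CPM in the IVS libraries, from 1122 and 1045 reads. Both diosmin libraries lay far below both IVS libraries and close to each other. The means were 27.5 ± 0.135 CPM with diosmin and 74.5 ± 14.7 CPM in IVS (SD, n = 2 each), which is 2.71-fold lower with diosmin in the fit (log2 fold change -1.44 ± 0.22 [-1.91 to -0.97], edgeR adjusted p = 0.00491). The call was lost without IVS_diosmin replicate 1 (log2 fold change -1.43, edgeR adjusted p = 0.112) and without IVS replicate 2 (-1.23, edgeR adjusted p = 0.0581). Of the Ctsl exons, 26.8% lie opposite the antisense gene Gm47123, which had 3 and 8 reads with diosmin and 9 and 18 in IVS, and 6.46% of the 50-base windows of its transcripts also occur in other genes, mainly the pseudogene Gm49230.

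The region around the RefSeq start of Ctsl is shown because Ctsl had the smallest p of all members. It is the RefSeq window on GRCm38.p6, chr13:64370471-64370770, - strand, from 250 bases before to 50 bases after the start, written 5′ to 3′. The whole window lies inside the gene span given above, which on this strand begins at 64370890. It therefore does not show the bases before that outer start. The capitals mark CACGTG, the core of the E-box that TFEB and related factors bind, which begins 236 bases before the RefSeq start:
Ctsl: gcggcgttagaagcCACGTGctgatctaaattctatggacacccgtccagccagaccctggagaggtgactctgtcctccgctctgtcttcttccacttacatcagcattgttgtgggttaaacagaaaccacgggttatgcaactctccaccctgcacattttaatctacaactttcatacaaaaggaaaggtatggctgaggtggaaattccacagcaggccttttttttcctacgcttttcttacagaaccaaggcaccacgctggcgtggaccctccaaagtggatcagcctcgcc

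Cathepsin B (Ctsb, ENSMUSG00000021939, chr14:63122462-63145923), an abundant cysteine protease, had 154 and 156 CPM with diosmin and 209 and 319 CPM in IVS. The groups did not overlap, and IVS replicate 2 stood highest. The difference did not pass the test (log2 fold change -0.77 ± 0.23 [-1.27 to -0.26], edgeR adjusted p = 0.106), whereas DESeq2 gave an adjusted p of 0.0255, the edgeR fit with no low-count filter 0.0149 and the edgeR fit without IVS replicate 1 0.0492 (log2 fold change -1.04). Cathepsin D (Ctsd, ENSMUSG00000007891, chr7:142375911-142388038), the main aspartic protease of lysosomes, had 105 and 134 CPM with diosmin and 162 and 193 CPM in IVS. These groups did not overlap either, and the difference did not pass (log2 fold change -0.57 ± 0.21 [-1.03 to -0.11], edgeR adjusted p = 0.188). Ctsd shares 34.4% of its exon length with the overlapping gene Gm49369 on the same strand, so its count is uncertain.

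Cathepsin C (Ctsc), a dipeptidyl peptidase that activates granule serine proteases, had 15.7 and 20.0 CPM with diosmin and 26.6 and 24.1 CPM in IVS. Its difference did not pass (log2 fold change -0.51 ± 0.22, edgeR adjusted p = 0.272), although the libraries of the groups were apart. Cathepsin K (Ctsk), the collagen-degrading cathepsin of osteoclasts, was too low to be tested, with 8 and 4 reads with diosmin and 6 and 10 reads in IVS. The carboxypeptidases Ctsa and Ctsz and the cysteine protease Ctsf also had both diosmin libraries below both IVS libraries. Their levels ran from 14.6 to 85.3 CPM with diosmin and from 23.3 to 111 CPM in IVS, with log2 fold changes of -0.36, -0.31 and -0.42. In Ctsh, Ctso and Ctss the groups overlapped. Ctss, a cathepsin of antigen-presenting cells, had only 0.617 and 1.11 CPM with diosmin and 0.686 and 2.76 CPM in IVS (log2 fold change -0.96 ± 0.79), and Ctso was the single cathepsin with a positive difference (0.36 ± 0.33).

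Among the other luminal proteins, prosaposin (Psap, ENSMUSG00000004207, chr10:60277627-60302597, protein-coding) is the precursor of the saposins, small cofactors that present sphingolipids to their hydrolases. It had 194 and 225 CPM in the IVS_diosmin libraries, from 2512 and 3236 reads, against 423 and 641 CPM in the IVS libraries, from 7405 and 7889 reads. Both diosmin libraries lay below both IVS libraries, and the 2 IVS libraries lay further apart than the 2 diosmin libraries. The means were 209 ± 21.9 CPM with diosmin and 532 ± 154 CPM in IVS (SD, n = 2 each), 2.54-fold lower with diosmin in the fit (log2 fold change -1.35 ± 0.24 [-1.86 to -0.83], edgeR adjusted p = 0.0121). The call was lost without IVS_diosmin replicate 1 (log2 fold change -1.24, edgeR adjusted p = 0.197) and without IVS replicate 2 (-1.02, edgeR adjusted p = 0.135). Psap shares 0% of its 50-base windows with other genes.

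The window around the first of 2 Psap starts in the RefSeq table is shown as the other member that fell. It lies at chr10:60277378-60277677, + strand, GRCm38.p6, and has 62% G and C. It is all in lower case because CACGTG occurs in neither Psap window:
Psap: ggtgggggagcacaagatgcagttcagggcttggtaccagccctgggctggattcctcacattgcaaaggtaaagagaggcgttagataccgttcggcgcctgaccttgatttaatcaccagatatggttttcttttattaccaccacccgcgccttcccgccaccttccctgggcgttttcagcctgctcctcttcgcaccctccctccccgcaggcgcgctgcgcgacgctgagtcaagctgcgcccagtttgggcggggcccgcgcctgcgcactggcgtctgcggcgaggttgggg

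The glycosidases ranged from abundant to nearly silent genes. Acid alpha-glucosidase (Gaa), which degrades glycogen in the lysosome and is deficient in Pompe disease, had 117 and 121 CPM with diosmin and 108 and 153 CPM in IVS. The groups overlapped, and the difference was small against its interval (log2 fold change -0.14 ± 0.22 [-0.61 to 0.34], edgeR adjusted p = 0.823). Alpha-galactosidase A (Gla), which is deficient in Fabry disease, had 2 and 7 reads with diosmin and 20 and 30 reads in IVS, or 0.154 and 0.486 CPM against 1.14 and 2.44 CPM. Beta-galactosidase (Glb1) had 4 and 13 reads with diosmin and 55 and 20 reads in IVS, or 0.308 and 0.902 CPM against 3.14 and 1.63 CPM. Both genes were lower in each diosmin library than in each IVS library, with no call. Their intervals were the widest of the other hydrolases and cofactors (log2 fold changes -2.42 ± 0.86 [-4.29 to -0.54] and -1.96 ± 0.72 [-3.52 to -0.39], edgeR adjusted p = 0.168 and 0.182). Beta-glucuronidase (Gusb), the alpha chain of beta-hexosaminidase (Hexa) and the sialidase Neu1 had log2 fold changes of -0.00, -0.05 and -0.03, and their groups overlapped. Their levels lay in between, with means of 5.09, 27.0 and 13.6 CPM with diosmin and 5.10, 27.9 and 13.9 CPM in IVS.

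Tripeptidyl peptidase 1 (Tpp1), a serine protease that trims tripeptides from protein ends, had 47.0 and 44.3 CPM with diosmin and 60.4 and 75.5 CPM in IVS. The groups were apart without passing the test (log2 fold change -0.57 ± 0.20 [-1.02 to -0.13], edgeR adjusted p = 0.168). Lysosomal acid lipase (Lipa), which hydrolyses cholesteryl esters and triglycerides, had 5.63 and 4.65 CPM with diosmin and 8.23 and 7.72 CPM in IVS. It did not pass either (log2 fold change -0.64 ± 0.32 [-1.33 to 0.06], edgeR adjusted p = 0.345). Acid ceramidase (Asah1) and palmitoyl-protein thioesterase 1 (Ppt1) were likewise lower in both diosmin libraries than in both IVS libraries, with log2 fold changes of -0.41 ± 0.27 and -0.56 ± 0.35. The cholesterol carrier Npc2 overlapped between the groups (-0.20 ± 0.24).

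Among the membrane proteins 0 of 6 passed the edgeR test, beside 1.78% lower and 1.17% higher among all tested genes. At an unadjusted p under 0.05, 3 were lower, beside 8.91% lower and 7.91% higher among all tested genes. DESeq2 called 0, beside 3.04% lower and 2.28% higher. Cd63, a tetraspanin of late endosomes and lysosomes, came nearest, with 34.7 and 41.4 CPM with diosmin and 55.2 and 65.8 CPM in IVS (log2 fold change -0.67 ± 0.21 [-1.12 to -0.22], edgeR adjusted p = 0.116). Its groups did not overlap, and 11.0% of its 50-base windows also occur in its pseudogene Cd63-ps. Scarb2, the LIMP-2 receptor that carries glucocerebrosidase to lysosomes, had 19.6 and 25 CPM with diosmin and 28.8 and 37.0 CPM in IVS (log2 fold change -0.56 ± 0.23 [-1.05 to -0.06], edgeR adjusted p = 0.230). Npc1, which exports cholesterol from lysosomes together with Npc2, had 32.5 and 44.0 CPM with diosmin and 48.9 and 59.4 CPM in IVS (log2 fold change -0.50 ± 0.22, edgeR adjusted p = 0.278). In both genes the diosmin libraries were the lower ones throughout.

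Lamp1 and Lamp2 are the most abundant glycoproteins of the lysosomal membrane, and loss of Lamp2 causes the vacuolar myopathy of Danon disease. Lamp1 had 153 and 192 CPM with diosmin and 190 and 238 CPM in IVS (log2 fold change -0.31 ± 0.22 [-0.78 to 0.16], edgeR adjusted p = 0.529). Lamp2 had 88.1 and 61.9 CPM with diosmin and 88.6 and 74.8 CPM in IVS (log2 fold change -0.12 ± 0.22 [-0.61 to 0.36], edgeR adjusted p = 0.845). The groups overlapped in both genes. The calcium channel Mcoln1 had 24.3 and 28.5 CPM with diosmin and 33.2 and 29.3 CPM in IVS, close together and just not overlapping (log2 fold change -0.24 ± 0.21).

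Of the 8 autophagy factors 0 passed the edgeR test in either direction, beside 1.78% lower and 1.17% higher among all tested genes. At an unadjusted p under 0.05 there were 0, beside 8.91% lower and 7.91% higher. DESeq2 called 0, beside 3.04% lower and 2.28% higher. Among 8 genes, counts of 0 are near these shares. The groups overlapped in all 8. Among all tested genes both diosmin libraries lay below both IVS libraries in 24.1% and above them in 23.4%. Tfeb, the transcription factor that drives lysosomal genes, had 39.1 and 52.6 CPM with diosmin and 34.9 and 42.0 CPM in IVS (log2 fold change 0.25 ± 0.22 [-0.23 to 0.73], edgeR adjusted p = 0.635). The cargo receptor Sqstm1, also called p62, had 208 and 287 CPM with diosmin and 239 and 264 CPM in IVS (log2 fold change -0.02 ± 0.22 [-0.50 to 0.45], edgeR adjusted p = 0.975). In both genes the diosmin libraries differed more from each other than the group means did.

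Map1lc3b, an LC3 protein that is linked to lipid on the autophagosome, had 71.3 and 93.7 CPM with diosmin and 70.8 and 81.5 CPM in IVS (log2 fold change 0.12 ± 0.21 [-0.34 to 0.57], edgeR adjusted p = 0.848). Ulk1, the kinase that starts autophagosome formation, had 56.8 and 44.8 CPM with diosmin and 52.5 and 45.4 CPM in IVS (log2 fold change 0.05 ± 0.21 [-0.40 to 0.51], edgeR adjusted p = 0.941). These intervals do not reach a change as large as the estimate for Ctsl in either direction. Neither do those of Gaa, Lamp1 and Lamp2, so this is not particular to the autophagy factors. The other LC3 gene Map1lc3a, the GABARAP relative Gabarapl1, the lipid kinase subunit Becn1 and the conjugation factor Atg5 had log2 fold changes of -0.00, 0.21, 0.16 and 0.30. Becn1 is uncertain, since 43.9% of its exon length lies opposite Cntd1, a gene with 288 and 373 reads with diosmin and 346 and 332 in IVS. Gabarapl1 and Sqstm1 overlap genes on the opposite strand too, over 28.3% and 17.3% of their exon length, and so does Ctsb over 12.8%. Hexa does so over 12.8%, Lamp1 over 9.31%, and Ctsa over 10.5% with Pltp and 6.87% with Neurl2. Pltp had 109 and 126 reads with diosmin and 309 and 353 in IVS. Grtp1, opposite Lamp1, had 398 and 624 with diosmin and 808 and 708 in IVS. Fdft1, opposite Ctsb, went the other way, with 478 and 703 reads with diosmin and 420 and 246 in IVS. Ppt1, Npc1, Map1lc3b and Ctsz had smaller overlaps. The part of these overlaps in the counts was not tested.

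**Figure D2:**
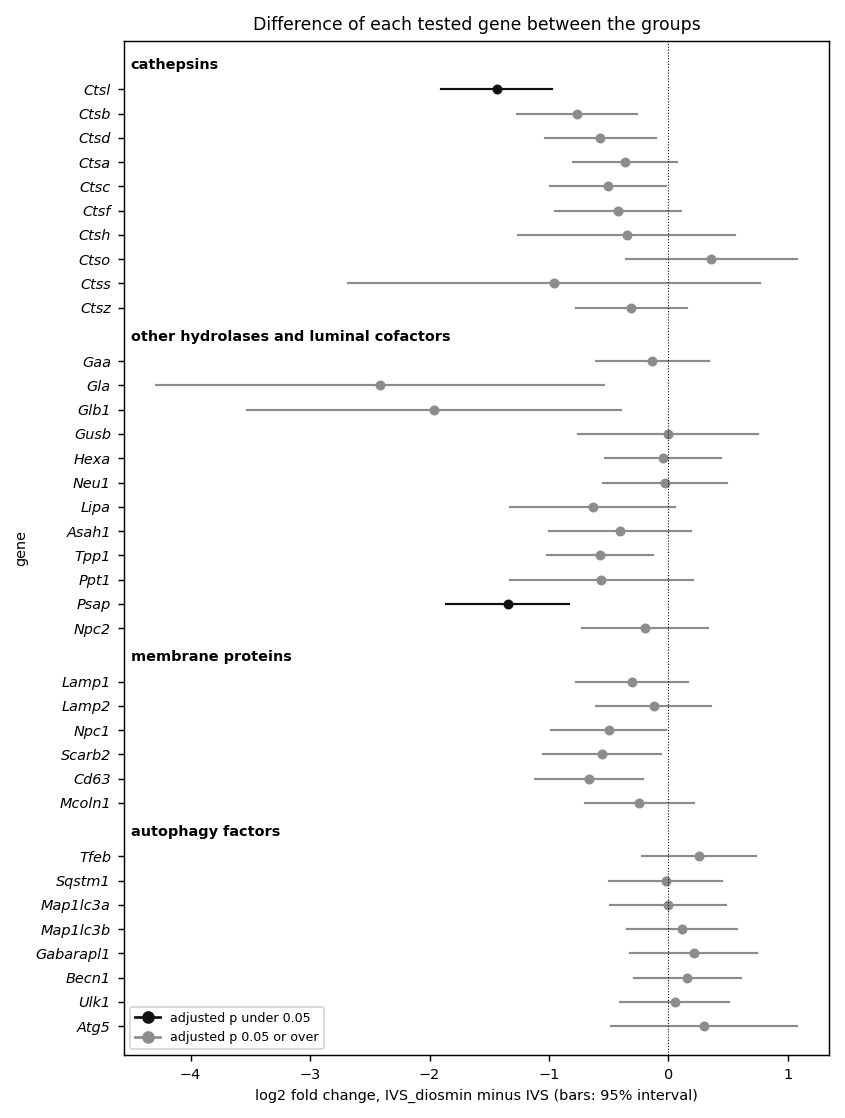
Log2 fold change of IVS_diosmin minus IVS for the 36 tested members by role, with 95% intervals as bars, and black for an adjusted p under 0.05. Ctsl (-1.44) and Psap (-1.35) are the 2 black points. Gla and Glb1 have the widest intervals among the other hydrolases and cofactors, and the autophagy factors lie between -0.02 and 0.30.

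Leaving out a library changed the calls of the members and of all genes. Without IVS_diosmin replicate 1, 0 members fell by edgeR, beside 0.0766% of all tested genes, and without IVS replicate 2, 0 fell, beside 0.423%. Without IVS replicate 1, 3 members fell (Ctsl, Psap and Ctsb), beside 1.82% of all tested genes, and without IVS_diosmin replicate 2, 2 fell (Ctsl and Psap), beside 0.885%. IVS replicate 2 lay above IVS replicate 1 in 26 of the 36 members (72.2%) and in 9 of 10 cathepsins, against 51.3% of all tested genes. The estimates of Ctsl stayed between -1.63 and -1.23 with each library left out, and those of Psap between -1.62 and -1.02. Each leave-one-out fit assumes that the lone library of a group varies like the other group.

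**Figure D3:**
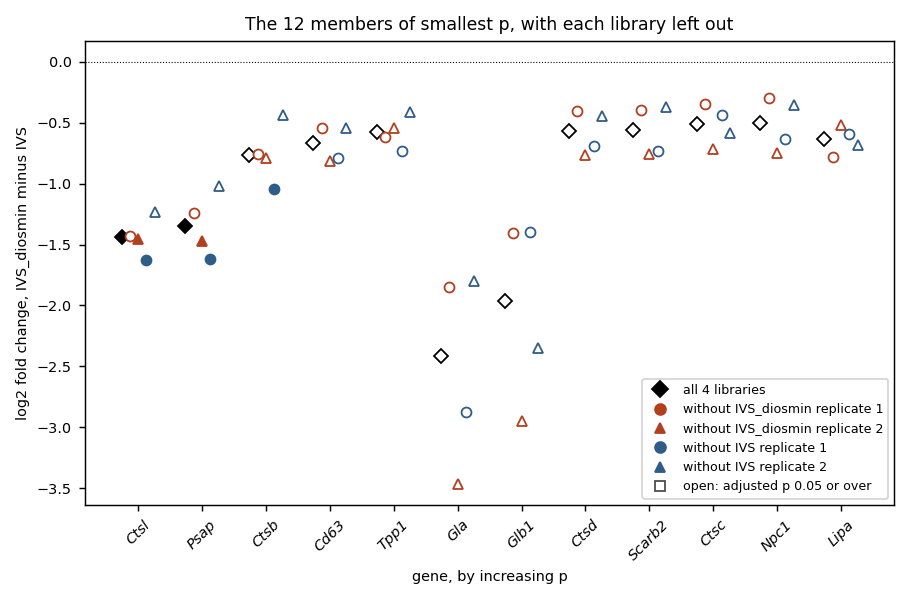
Log2 fold change of IVS_diosmin minus IVS for the 12 members of smallest p, with all 4 libraries (black diamonds) and with each library left out in turn (red circles and triangles for IVS_diosmin replicates 1 and 2, blue for IVS replicates 1 and 2); open symbols have an adjusted p of 0.05 or over. All points lie below 0, and those of Gla and Glb1, from 9 and 17 reads in the 2 diosmin libraries together, spread most.

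Levels of different genes were compared per kilobase of exon, as TPM within each group (n = 2 each, SD). With diosmin the 4 most abundant members were Map1lc3a at 147 ± 44.4 TPM, Psap at 117 ± 19.9 TPM, Sqstm1 at 114 ± 32.8 TPM and Lamp1 at 99.3 ± 22.2 TPM, and neighbours in this order overlapped. In IVS, Psap led with 298 ± 36.7 TPM, above Map1lc3a at 149 ± 6.65 TPM, Lamp1 at 124 ± 1.60 TPM, Ctsd at 118 ± 5.69 TPM and Sqstm1 at 117 ± 12 TPM, of which Sqstm1 overlapped with both Lamp1 and Ctsd. Ctsl stood at rank 19 with diosmin (6.48 ± 0.461 TPM) and at rank 13 in IVS (17.8 ± 0.504 TPM). Gla, Glb1 and Ctsk held the 3 lowest ranks in both groups, at 0.154 to 0.445 TPM with diosmin and 0.573 to 1.30 TPM in IVS.

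Other genes of the pathway were taken from 5 lists of known lysosomal and autophagy genes, also chosen with earlier results of these data known. Of 33 tested further hydrolases and luminal proteins (35 listed), 3 fell, 0 rose and 27 were below 0, with a median log2 fold change of -0.35. Among all tested genes 1.78% fell, 1.17% rose and 49.5% were below 0. Aspartylglucosaminidase (Aga), which frees asparagine-linked sugars, had 3.78 and 2.50 CPM with diosmin and 10.4 and 17.1 CPM in IVS (log2 fold change -2.13 ± 0.36, edgeR adjusted p = 0.00965). Legumain (Lgmn), an asparaginyl endopeptidase that processes cathepsins, had 8.94 and 6.80 CPM with diosmin and 18.2 and 23.3 CPM in IVS (log2 fold change -1.40 ± 0.26, edgeR adjusted p = 0.0166). Carboxypeptidase Q (Cpq) had 3.55 and 3.05 CPM with diosmin and 7.09 and 11.5 CPM in IVS (log2 fold change -1.48 ± 0.36, edgeR adjusted p = 0.0481). In all 3 genes both diosmin libraries lay below both IVS libraries. As for Ctsl and Psap, 0 of the 3 passed without IVS_diosmin replicate 1 or without IVS replicate 2, and only Aga passed without IVS_diosmin replicate 2 (edgeR adjusted p = 0.0420). With the replicate number as a block, where 0.362% of all tested genes fell, 0 of the 3 passed (edgeR adjusted p = 0.0913 for Aga, 0.102 for Lgmn and 0.159 for Cpq).

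The other 4 lists had no call in either direction by the edgeR test used throughout, although other filters gave a few. Among all tested genes 1.78% fell and 1.17% rose by that test, and 49.5% were below 0. At an unadjusted p under 0.05, 8.91% of all tested genes were lower and 7.91% higher, and by DESeq2 3.04% and 2.28%. Of 18 subunits of the V-ATPase, the proton pump that acidifies lysosomes, 12 were below 0 (median log2 fold change -0.12), with 6 lower and 0 higher at an unadjusted p under 0.05 and 2 lower by DESeq2. Its member of smallest p, Atp6ap1, had 39.8 and 37.0 CPM with diosmin and 56.1 and 80.9 CPM in IVS (log2 fold change -0.83, edgeR adjusted p = 0.0686). Of 38 other membrane, sorting and positioning proteins 21 were below 0 (median -0.04), with 4 lower and 2 higher at an unadjusted p under 0.05 and 0 by DESeq2. Lamtor2, a subunit of the Ragulator complex that anchors mTORC1 signalling to lysosomes, had 21.2 and 19.6 CPM with diosmin and 35.3 and 32.3 CPM in IVS (log2 fold change -0.73, edgeR adjusted p = 0.0841).

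Of 47 further autophagosome and cargo genes 21 were below 0 (median log2 fold change 0.04), with 1 lower and 2 higher at an unadjusted p under 0.05 and 0 by DESeq2. Atg101, a partner of ULK1, had 7.56 and 8.47 CPM with diosmin and 13.1 and 16.3 CPM in IVS (log2 fold change -0.87, edgeR adjusted p = 0.109). Of 25 tested regulators of the pathway (27 listed) 12 were below 0 (median 0.05), with 2 lower and 3 higher at an unadjusted p under 0.05 and 0 by DESeq2. Prkaa2, a catalytic subunit of the energy sensor AMPK, had 42.7 and 60.0 CPM with diosmin and 33.7 and 25.1 CPM in IVS (log2 fold change 0.80, edgeR adjusted p = 0.0978). Both lists had medians near that of all tested genes (0.01). Of all tested genes 49.5% were below 0, and 8.91% were lower and 7.91% higher at an unadjusted p under 0.05.

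**Figure D4:**
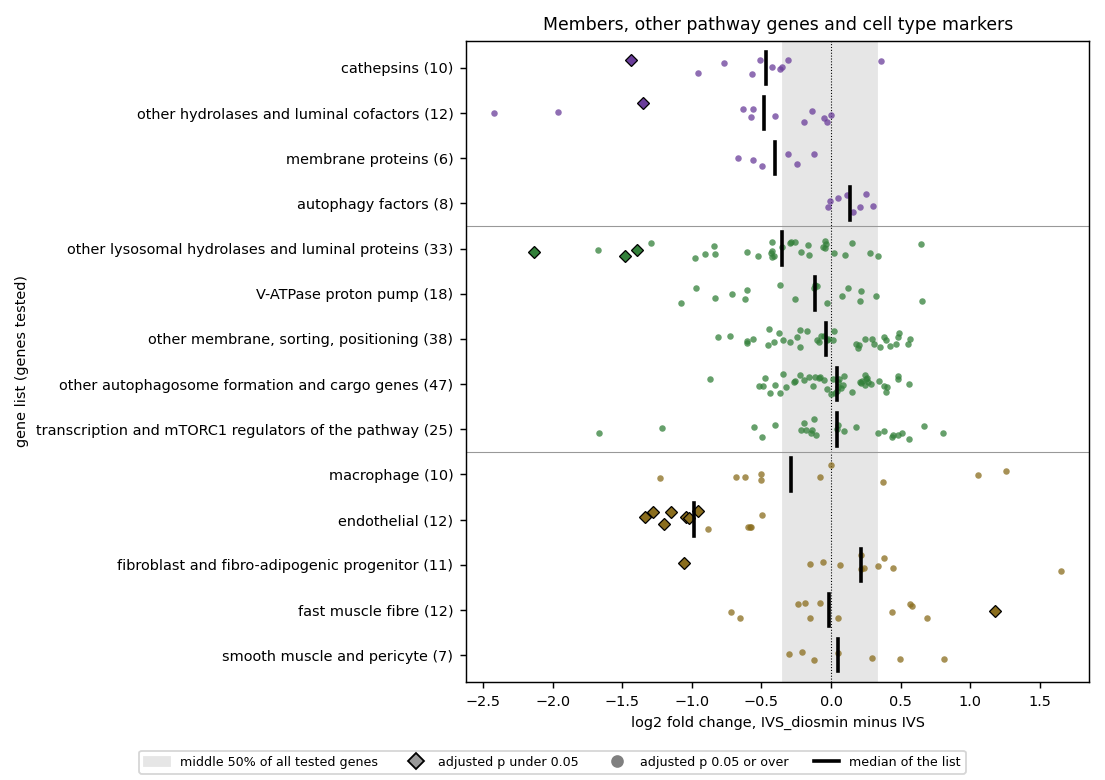
Log2 fold change of IVS_diosmin minus IVS for the tested members by role (purple), the 5 other pathway lists (green) and markers of 5 cell types (brown), with diamonds for an adjusted p under 0.05, a bar at each median and the middle 50% of all tested genes in grey. Medians of the 3 lysosomal roles (-0.47, -0.48 and -0.40) lie left of the grey band, those of the autophagy lists (0.14 and 0.04) inside it, and that of the endothelial markers (-0.99) lies furthest left of those drawn; slow fibre markers are beyond the axis and not drawn.

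Cell type markers moved between the groups as well. Endothelial markers were lower with diosmin, with 7 of 12 called lower by edgeR, against 1.78% of all tested genes. Their median log2 fold change was -0.99, and they summed to 400.0 and 350 CPM with diosmin against 694 and 739 CPM in IVS. Slow muscle fibre markers were higher, with 9 of 10 called higher by edgeR, against 1.17% of all tested genes. They summed to 3867 and 1519 CPM with diosmin against 88.1 and 95.2 CPM in IVS. Of 10 tested markers of macrophages, which are rich in lysosomes, 0 were called by edgeR, 0 by DESeq2 and 0 had an unadjusted p under 0.05. Among all tested genes 8.91% were lower and 7.91% higher at that p. The median log2 fold change of these markers was -0.29 (range -1.23 to 1.26), beside -0.33 for the members, and 6 of 10 were below 0. The 15 macrophage markers summed to 33.0 and 57.1 CPM with diosmin and 31.8 and 65.6 CPM in IVS, ranges that overlap, and none of them was at 0 in all 4 libraries. Of 6 neutrophil markers 5 (S100a8, S100a9, Retnlg, Csf3r and Ly6g) were at 0 in every library. The other, Mmp9, was near the floor at 0.154 and 0.278 CPM with diosmin and 0.915 and 1.46 CPM in IVS. It was lower at an unadjusted p under 0.05 and not called by edgeR (log2 fold change -2.39). At that p, 1 of 11 fibroblast and fibro-adipogenic progenitor markers was lower and 1 higher (median 0.22), and 1 of 3 tested adipocyte markers was lower and 0 higher. Erythrocyte markers summed to 19.5 and 35.7 CPM with diosmin and 3.95 and 18.0 CPM in IVS, with 0 of 4 tested markers called by edgeR, 3 higher at an unadjusted p under 0.05, 1 higher by DESeq2 and a median log2 fold change of 1.73. The part of any of these cell types, macrophages included, in the lower lysosomal levels was not tested.

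The promoters of the members were searched on both strands for CACGTG, for the longer motif TCACGTG and for the longest motif, GTCACGTG. Each longer motif contains the shorter ones, and TCACGTG is the core of the sites through which TFEB is known to act on lysosomal genes. Of the 37 members 31 were in the RefSeq table of 300-base windows. CACGTG occurred in 10 of them (32.3%) and in 8.09% of the 27025 genes of the table, TCACGTG in 7 (22.6%) against 4.29%, and GTCACGTG in 6 (19.4%) against 2.55%. The 7 members with TCACGTG were Ctsa, Ctsd, Gaa, Gla, Glb1, Lamp1 and Mcoln1. None of these 7 passed the edgeR test, with log2 fold changes from -2.42 to -0.14, and the 2 members that fell do not hold TCACGTG in these windows. The starts are those of RefSeq. For Ctsl the whole window lies inside the annotated gene span, so the bases before its outer start were not searched. A match describes the letters only.

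All 9 matches to the longest motif, on either strand, in the 6 members that hold it are shown to place the motif beside the values above. Each line gives bases on the gene's own strand, 5′ to 3′, from GRCm38.p6, with CACGTG in capitals. The match of Lamp1, which holds 4 copies of CACGTG, begins 28 bases before the start, that of Glb1 48 and that of Gla 194 bases before it. Mcoln1 has matches 71 and 45 bases before the start, Ctsd 98 and 245 bases before it, and Ctsa 12 bases before and 5 bases after it:
Lamp1, chr8:13159126-13159145, + strand: cgactggCACGTGaccacat
Mcoln1, chr8:3500441-3500460, + strand: cgcttgtCACGTGttcagtt
Mcoln1, chr8:3500467-3500486, + strand: ccccgctCACGTGaccgcgg
Ctsd, chr7:142387913-142387932, - strand: cgcgtctCACGTGacccgtt
Ctsd, chr7:142388060-142388077, - strand: tccccCACGTGacctgta
Ctsa, chr2:164833754-164833773, + strand: aaactgtCACGTGatgcaga
Ctsa, chr2:164833771-164833790, + strand: agatgctCACGTGaccagag
Glb1, chr9:114401023-114401042, + strand: tctgagtCACGTGgcctaca
Gla, chrX:134601187-134601206, - strand: tctcggtCACGTGagcaact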

How the data were processed

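Poly(A) RNA of 4 muscle samples was sequenced, and the deposited values are raw counts per gene, 1 file per sample, made by the authors with HISAT2 2.1.0 and HTSeq on mm10, per the submitters' processing notes. The HTSeq version, annotation release and strand setting are not given in the sources used here, and the kit named in the labels' protocols is not said to keep the strand. Symbols, positions and exon lengths came from GENCODE M21, which matched 55141 of 55401 gene identifiers. Gene counts were 24.9% and 26.3% of the reads in the IVS_diosmin files and 27.5% and 27.7% in the IVS files. The 5 HTSeq summary lines, which name no gene and hold the rest (reads with more than 1 alignment were 45.6% and 43.6% against 37.7% and 38.8%), were left out of the library sizes and of all tests.

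The fit used edgeR 4.0.16 under R 4.3.3 with filterByExpr (13533 genes kept), TMM scaling, a robust quasi-likelihood fit and test of IVS_diosmin minus IVS. The test was 2-sided, and p-values were adjusted by Benjamini-Hochberg over all tested genes, with a threshold of 0.05. The biological coefficient of variation was 0.235. TPM used the union of annotated exons. Chi-square per degree of freedom between replicates was 19.7 with diosmin and 28.6 in IVS, so no library repeated another within sampling noise. Tested on simulated data with 200 genes changed 4-fold, the fit recovered 192 with 26 false calls among 13057 genes and 183 with 12 false calls among 13081 genes. As a share of the calls made, the false calls were above the adjusted p threshold of 0.05 in both runs. The changed genes were drawn from those above a minimum count. Ctsl and Psap differed less, 2.71- and 2.54-fold, so this recovery does not describe changes of their size or smaller. Alternatives were DESeq2 1.42.0, its size factors, other low-count filters, ribosomal-type genes left out, a replicate block and each library left out.

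The members and lists were chosen with earlier results of these data known. Full values are given for called members, then for members by smallest p until 12 were named, and for Ctsk, Gaa, Lamp1, Lamp2, Tfeb, Sqstm1, Map1lc3b and Ulk1 as known members of their role, besides Ctsl, Ctsb and Ctsd. From each wider list, up to 5 called genes were named, or the gene of smallest p. Near copies were counted as 50-base windows shared with transcripts of other genes. Promoter sequences are from RefSeq.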

Additional observations from a re-analysis of the deposited data

How the results depend on the processing

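Across the tested genes 400 differed, and 592 did with DESeq2, 378 with its size factors, 464 with a filter of 10 CPM in 2 libraries, 919 with no low-count filter and 38 to 366 with a library left out. Members that fell were 2, and 3 with DESeq2 or no filter and 0 to 3 with a library left out; 0 members rose under any of these. The median over the members was -0.33, and -0.44 to -0.24 with a library left out. Deviations from the group means had a correlation of 0.01 between libraries of equal replicate number. With 2 libraries per group, the value for unequal numbers (-0.01) is fixed as its opposite and adds no contrast. This does not settle whether the samples were paired. With the replicate block 93 genes differed and 2 members fell (edgeR adjusted p = 0.0481 for Ctsl and for Psap). The median of the other hydrolases was -0.22 with the 10 CPM filter, that of the cathepsins -0.69 without IVS replicate 1 and -0.29 without IVS_diosmin replicate 2, that of the membrane proteins -0.55 and -0.62 in the same order, and that of the autophagy factors 0.01 without IVS replicate 1. Members below 0 were 29 of 36, and 24 of 36 without IVS replicate 2, where 7 members changed sign. V-ATPase genes that fell were 3 with the 10 CPM filter, 3 with no filter and 1 without IVS replicate 1. Of the other membrane and sorting genes 1 fell with either filter setting. Of the regulators 1 rose and 1 fell with no filter, and 1 fell without IVS replicate 1. The planned removal of ribosomal-type genes took out Rn7sk alone of its genes and left 399 genes that differed; removal of the ribosomal RNA gene and all mitochondrial genes, chosen after seeing the data, left 400 and 2 members. With the longest transcript as the length, Sqstm1 stood at 132 TPM in IVS, above Ctsd at 117 TPM. The causes of these shifts were not tested. Depth limits Gla, Glb1, Ctss and Ctsk, with 9, 17, 24 and 12 reads over the diosmin libraries and 50, 75, 46 and 16 over the IVS libraries.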
